A study of Mus musculus with 2 samples.

Results

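The genes described here are 10 inflammatory cytokines, cytokine receptors and acute-phase genes that fibroblasts are known to make or to respond to: Il6, Lif and Il11 (cytokines that signal through the shared receptor gp130), Il33 and Tslp (alarmins, released by stromal and epithelial cells), Il1rl1 (ST2, the receptor for IL-33), Csf1 (a growth factor for macrophages), Saa3 and Lcn2 (acute-phase proteins) and Nos2 (the inducible nitric oxide synthase). They were chosen by name, and every non-control probe on the array that carried one of these gene names was taken. Of the 10 genes, 9 were found, by 11 probes, among 27579 genes with a ratio on the arrays. Lif was matched by 0 spots, by name or by accession, and was not analysed here.

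The RNAs came from untreated embryonic fibroblasts of C57BL/6J mice, either deficient for the kinase Lats2 (Lats2-/-, KO) or wild type (Lats2+/+, WT). Lats2 is a kinase of the Hippo pathway, and the cells carry the deficiency from the germ line. The sources used here give neither the number of embryos nor their age nor the passage of the cells. The 2 RNAs were hybridised together to each of 2 arrays, with the KO RNA in the red dye Cy5 on the first and in the green dye Cy3 on the second. No separate replicates are named, so both arrays were counted as 1 replicate, and the differences below have no test over animals or cultures. On that reading the between-array spread covers hybridisation and dye error only.

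In fibroblasts, inflammatory cytokines are mostly silent or low at rest. Ligands of the IL-1 and TNF receptors and of Toll-like receptors switch them on through NF-kB and AP-1, and C/EBP factors add to this at the Il6 promoter. IL-6 family cytokines in turn signal through gp130 to the kinase JAK and the transcription factor STAT3, which induces Socs3, its own inhibitor. IL-33 and TSLP act mainly on immune cells such as mast cells and lymphocytes. Il1rl1 encodes 2 main forms, a membrane receptor that carries the IL-33 signal and a shorter soluble form that binds IL-33 without a signal, and fibroblasts are a known source of the soluble form.

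The promoters of the 3 genes that were called different below are shown first, to set out which letters of known regulators of such genes lie near their starts. The sequences are those of RefSeq on build GRCm38.p6, from 250 bases before to 50 bases after the annotated start, 5′ to 3′ on the strand of the gene. Capitals mark matches, on either strand, to the letters of AP-1 (TGANTCA), C/EBP (TTGCNNAA), TEAD (GGAATG, the partners of YAP and TAZ in the Hippo pathway), STAT (TTCNNNGAA) and the NF-kB consensus. Il1rl1 has 2 annotated starts, and both are shown.
Il6 (chr5:30012864-30013163, + strand): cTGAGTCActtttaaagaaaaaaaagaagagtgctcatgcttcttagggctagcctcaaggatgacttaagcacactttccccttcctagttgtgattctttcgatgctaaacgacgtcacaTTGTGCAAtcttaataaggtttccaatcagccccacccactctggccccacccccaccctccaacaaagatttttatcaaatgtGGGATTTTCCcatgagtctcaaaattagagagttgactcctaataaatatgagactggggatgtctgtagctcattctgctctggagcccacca
Csf1 (chr3:107760420-107760719, - strand): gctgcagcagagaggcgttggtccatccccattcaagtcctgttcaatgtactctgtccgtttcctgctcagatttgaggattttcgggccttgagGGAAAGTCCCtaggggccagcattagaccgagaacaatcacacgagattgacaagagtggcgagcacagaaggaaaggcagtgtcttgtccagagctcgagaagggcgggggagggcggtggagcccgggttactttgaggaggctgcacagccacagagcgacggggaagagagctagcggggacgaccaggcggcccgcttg
Il1rl1, upstream start (chr1:40429320-40429619, + strand): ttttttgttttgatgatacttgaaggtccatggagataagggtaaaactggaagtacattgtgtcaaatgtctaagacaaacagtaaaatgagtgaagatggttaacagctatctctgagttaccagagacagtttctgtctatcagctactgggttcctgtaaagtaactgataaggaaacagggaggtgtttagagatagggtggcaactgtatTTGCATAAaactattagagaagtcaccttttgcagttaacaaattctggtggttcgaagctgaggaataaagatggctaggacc
Il1rl1, downstream start (chr1:40439379-40439678, + strand): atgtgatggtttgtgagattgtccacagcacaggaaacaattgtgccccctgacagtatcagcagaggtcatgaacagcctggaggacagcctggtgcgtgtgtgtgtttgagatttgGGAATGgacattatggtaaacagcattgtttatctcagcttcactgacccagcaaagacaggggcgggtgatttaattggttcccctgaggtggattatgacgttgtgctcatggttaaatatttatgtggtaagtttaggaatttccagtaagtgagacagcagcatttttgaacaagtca

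Within this window the Il6 promoter held an AP-1 match beginning at -249 from the start, a C/EBP match on the opposite strand at -128 and an NF-kB match at -44. The Csf1 promoter held an NF-kB match on the opposite strand at -154. At the upstream start of Il1rl1 there was a C/EBP match at -34, and at the downstream start a TEAD match at -132. None of the matches overlapped. Among 32851 promoters of the same length, the AP-1 letters occurred in 7.81%, those of C/EBP in 10.8%, of NF-kB in 8.46%, of TEAD in 14.7% and of STAT in 8.30%. These matches are descriptions of letters, and binding was not measured here.

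The level of the targeted gene was examined to check the labels. Lats2 had 4 probes, and in the RNA labelled KO 3 of them were higher, with mean log2 ratios from 0.56 to 0.63, and 1 was at -0.35. The deleted part of the gene is not given in the sources used here. At 3 of the 4 probes a lower level of Lats2 in the RNA labelled KO was thus not seen. With the deleted part unknown, these levels cannot settle whether the labels are right. The terms RNA labelled KO and RNA labelled WT are therefore used, and KO and WT alone stand for the RNAs so labelled. Every direction rests on the labels. Each array had 41174 probes, and 0 spots were saturated. Across the 40875 probes with a ratio on both arrays, the log2 ratio of a probe had a between-array SD of 0.133.

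A gene was called when its log2 ratio of KO over WT was at least 1 in size (2-fold) and of 1 sign on both arrays, and its brightest probe was well above background on both arrays in the RNA where it was higher. Among the 15877 genes that 1 or both RNAs held well above background, 469 (2.95%) were called higher and 414 (2.61%) lower in the RNA labelled KO. Of the 9 genes measured here, 2 were called higher, Il6 and Csf1, and 1 was called lower, Il1rl1. Tslp, Il11 and Il33 were well above background without reaching the threshold on each array. For Saa3, Lcn2 and Nos2 neither RNA was well above background. The median log2 ratio of the 9 genes was -0.09, beside -0.0003 for all genes measured. Over the 6 of them above background it was -0.20, beside -0.0037 for all genes above background.

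**Figure D1:**
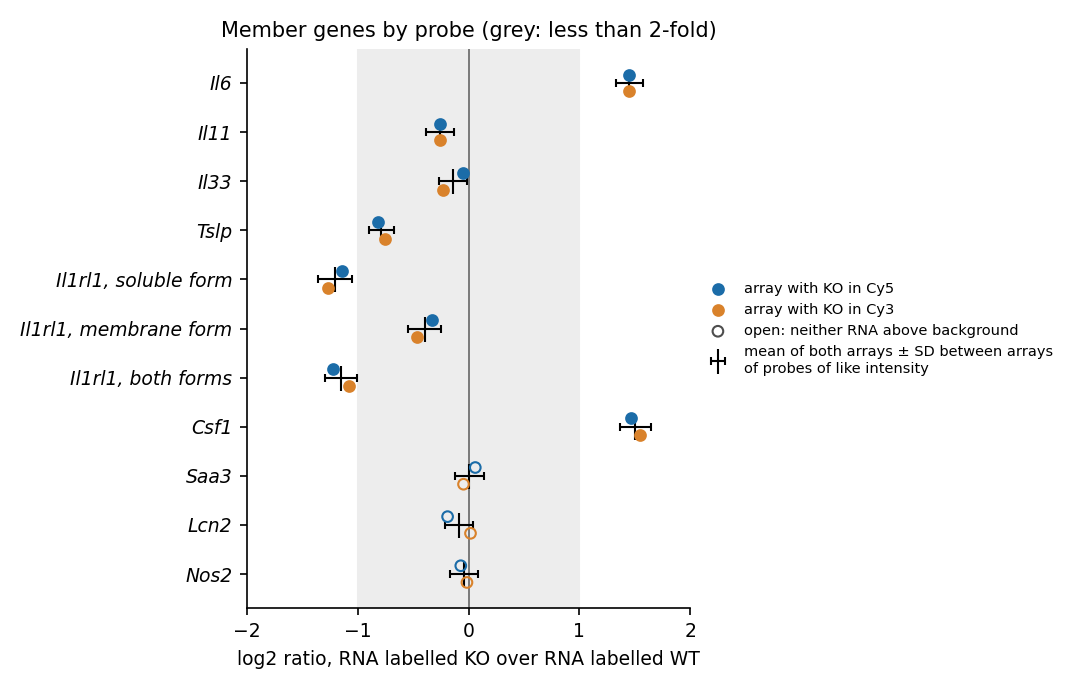
Log2 ratio of the RNA labelled KO over the RNA labelled WT (horizontal axis) for each of 11 probes, with 1 point per array and a black bar for the mean of both arrays ± the SD between arrays of the 1000 probes nearest in intensity. Il6 and Csf1 lie right of the grey band of less than 2-fold, at 1.45 and 1.51, and the probes of soluble Il1rl1 and of both Il1rl1 forms lie left of it, at -1.21 and -1.15.

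Il6, the classic cytokine of the acute-phase response, was higher in the RNA labelled KO. Its probe (chromosome 5, 30350609 to 30350668, + strand, NCBI36/mm8 build) was spotted 10 times on each array. In Cy5 the mean spot signal was 303 units in the RNA labelled KO and 75.7 in the RNA labelled WT, and in Cy3 it was 137 and 48.4. Within each dye the RNA labelled KO was thus the brighter, 4.01-fold in Cy5 and 2.83-fold in Cy3. The signal in the RNA labelled WT lay close to the local background, which was 37.1 units in Cy5 and 32.4 in Cy3, and with KO in Cy5 only 8 of the 10 WT spots were flagged as well above background. After normalization the log2 ratio was 1.45 on each of the arrays, a mean of 1.45 or 2.73-fold, beside an SD of 0.121 between arrays for probes of like intensity. From the highest ratio down, Il6 ranked 258 of 15877 genes.

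The size of the Il6 difference depended on the handling of background. With the local background subtracted and nothing added, the RNA labelled KO was 6.87-fold brighter in Cy5 and 6.74-fold brighter in Cy3. The mean log2 ratio was 2.20 when the offset added to each signal was 10 in place of 50, and 3.18 by the ratio that Feature Extraction computes. The direction and the call were the same under each of these.

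Il11, a gp130 cytokine with roles in stroma and bone, stayed within 2-fold. Its signals in Cy5 were 145 units in the RNA labelled KO and 194 in the RNA labelled WT, and in Cy3 they were 82.0 and 108 (chromosome 7, 4376332 to 4376391, - strand). The log2 ratios were -0.26 and -0.26 on the single arrays, beyond the SD of 0.124 between arrays of probes of like intensity.

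**Figure D2:**
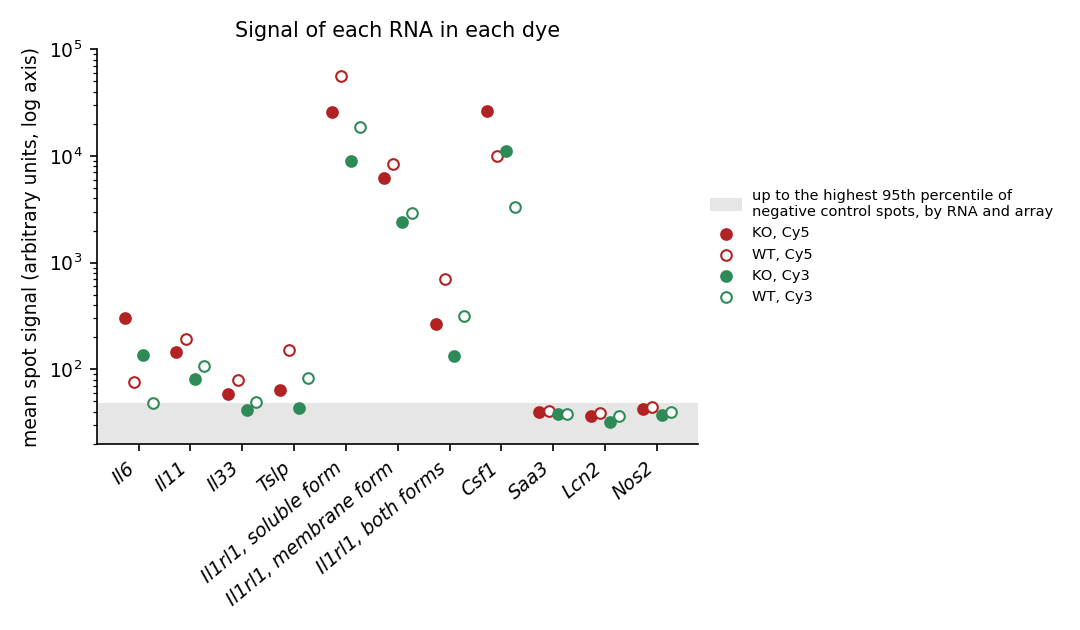
Mean spot signal (arbitrary units, log axis) of each probe in each RNA and dye, with filled points for the RNA labelled KO and open points for the RNA labelled WT. The grey band reaches to 47.2 units, the highest 95th percentile of negative controls over RNAs and arrays. Saa3, Lcn2 and Nos2 lie inside it in both RNAs, whereas Csf1 and the Il1rl1 probes of the soluble and membrane forms lie well above it.

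Of the alarmins, Tslp was lower in the RNA labelled KO but did not reach the call. Tslp, a cytokine of barrier tissues that acts on dendritic cells and mast cells, gave in Cy5 64.6 units in the RNA labelled KO and 151 in the RNA labelled WT, and in Cy3 43.2 and 82.5 (chromosome 18, 32962241 to 32962300, + strand). In both dyes the RNA labelled WT was the brighter, 2.33-fold in Cy5 and 1.91-fold in Cy3. The log2 ratios were -0.82 and -0.76 on the single arrays, a mean of -0.79 or 1.72-fold higher in the RNA labelled WT, beside an SD of 0.116.

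Like Il6, Tslp is a dim gene whose ratio moved with the treatment of background. Its mean was -1.38 when the smaller offset was used and -2.25 by Feature Extraction's ratio, and under both it was called lower. The background share of genes called by Feature Extraction's own ratio was also larger, at 5.93% higher and 5.45% lower. Il33, a nuclear alarmin of stromal and endothelial cells, was at the edge of detection. Its signals in Cy5 were 58.6 units in the RNA labelled KO and 78.8 in the RNA labelled WT, and in Cy3 42.0 and 49.2 (chromosome 19, 30026497 to 30026556, + strand). In the RNA labelled KO it was not well above background on the array with KO in Cy3. The log2 ratios were -0.05 and -0.23, and their mean of -0.14 was about the size of the SD of 0.130. Feature Extraction's own ratio put it at -1.03.

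Il1rl1, the IL-33 receptor, was represented by 3 probes on chromosome 1, which did not give the same value. The brightest probe (40392470 to 40392529) carries the accession of transcript variant 2, the soluble form. In Cy5 it gave 25910 units in the RNA labelled KO and 56423 in the RNA labelled WT, and in Cy3 8964 and 18662. The RNA labelled WT was the brighter in both dyes, 2.18-fold in Cy5 and 2.08-fold in Cy3. The log2 ratios were -1.15 and -1.27 on the single arrays, a mean of -1.21 or 2.31-fold higher in the RNA labelled WT, beside an SD of 0.154. From the lowest ratio up it ranked 304 of 15877 genes.

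The probe of transcript variant 1, the membrane form (40409653 to 40409712), showed a smaller difference. Its signals in Cy5 were 6267 units in the RNA labelled KO and 8418 in the RNA labelled WT, and in Cy3 2406 and 2919. The log2 ratios were -0.33 and -0.46, a mean of -0.40, short of the 2-fold threshold. The third probe (40386043 to 40386905), which lists the accessions of both forms, was at -1.22 and -1.08, a mean of -1.15 that reached the call. It was far dimmer than the probe of either form. In Cy5 it gave 267 units in the RNA labelled KO and 705 in the RNA labelled WT, and in Cy3 135 and 314. The log2 ratio of the soluble form's probe minus that of the membrane form's probe was -0.81 and -0.80 on the single arrays, a 1.75-fold gap. Against the probe of both forms the same difference was 0.07 on 1 array and -0.18 on the other. The values show an unequal difference between the probes within 1 gene. Averaged over its 3 probes, Il1rl1 was at -0.92 and was not called.

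Csf1, which drives the survival and growth of macrophages, was higher in the RNA labelled KO. Its probe (chromosome 3, 107869471 to 107869530, - strand) was spotted 10 times and gave in Cy5 26593 units in the RNA labelled KO and 9886 in the RNA labelled WT, and in Cy3 11231 and 3338. The RNA labelled KO was brighter within each dye, 2.69-fold in Cy5 and 3.37-fold in Cy3. The log2 ratios were 1.47 and 1.54 on the single arrays, a mean of 1.51 or 2.84-fold, beside an SD of 0.142. Csf1 ranked 240 from the highest of the genes above background. In contrast to Il6 its signal lay far above background, and its mean ran from 1.47 to 1.60 over the 9 other ways of processing. With median centring in place of loess, however, it was at 2.49 and 0.70 on the single arrays and lost the call.

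The repeated spots show the measuring error within an array. For Il6 the 10 spots with KO in Cy5 ran from 1.31 to 1.57 around a median of 1.44 (SD 0.0937), and with KO in Cy3 from 1.24 to 1.67 around 1.42 (SD 0.144). For Csf1 they were closer together, from 1.42 to 1.51 (SD 0.0305) and from 1.52 to 1.56 (SD 0.0144). All spots of both genes were above 1. The Nos2 spots ran from -0.23 to 0.15 on the first array, where 9 were used, and from -0.18 to 0.11 on the second.

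**Figure D3:**
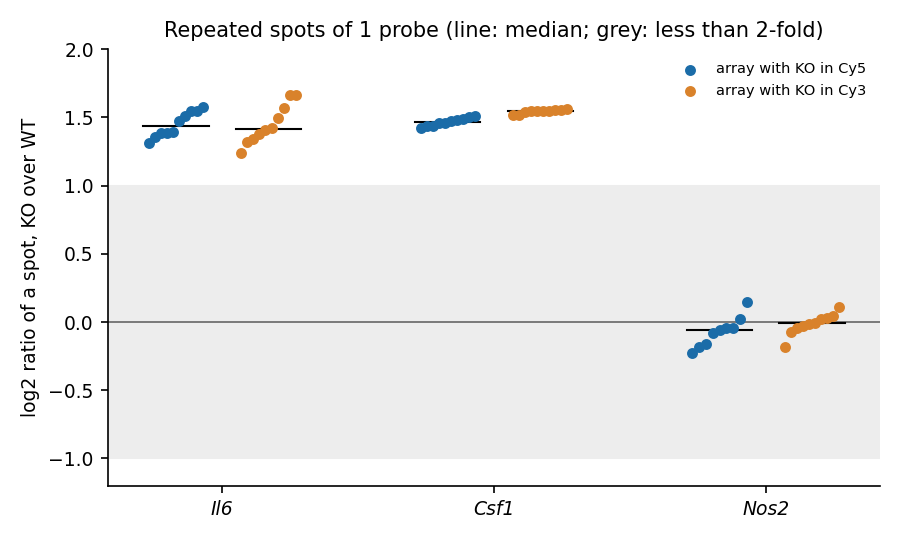
Log2 ratio of KO over WT (vertical axis) of each repeated spot of the Il6, Csf1 and Nos2 probes on both arrays, with a line at the median. Each spot of Il6 and Csf1 lies above the grey band of less than 2-fold, whereas the Nos2 spots lie around 0.

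The acute-phase genes Saa3 and Lcn2 and the enzyme gene Nos2 were not well above background on any array. Saa3, an acute-phase apolipoprotein made outside the liver, gave 39.5 units in the RNA labelled KO and 40.4 in the RNA labelled WT in Cy5, against a local background of 37.5 and 37.0, and 38.1 and 38.3 in Cy3. Its probe lists accessions of Saa3 and of Saa1, and which of them it reads was not analysed here. The probe named Saa1 was, unlike this one, well above background in both RNAs. Lcn2 (lipocalin 2, which binds bacterial siderophores) gave 36.4 and 38.6 units in Cy5 and 32.2 and 36.6 in Cy3. Nos2, whose product makes nitric oxide in activated cells, gave 42.3 and 43.9 in Cy5 and 37.4 and 39.98 in Cy3. For 153 negative control spots the 95th percentile was 45.7 units for KO in Cy5 and 47.2 for WT in Cy5. The ratios of these 3 genes, 0.01, -0.09 and -0.04, are therefore ratios of background and carry no direction.

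Around these genes, 9 lists of receptors, signal carriers and related genes were read, with 122 distinct genes measured. The genes described above are not in these lists, so the list counts leave out the calls of Il6, Csf1 and Il1rl1. Of the 81 that exceeded background in 1 or both RNAs, 7 (8.64%) were called higher and 5 (6.17%) lower, beside 2.95% and 2.61% of all genes above background, and their median log2 ratio was -0.02, beside -0.0037 for all genes above background. These counts describe the lists, which were chosen with earlier results of these data known, and were not tested. With median centring in place of loess, 4 of the 12 called genes kept the call.

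Most receptors for the cytokines stayed within 2-fold. Of the IL-6 family ligands and receptors other than Il6, Il11 and Lif, 10 of 12 were above background and 0 were called (median 0.04). Il6st, which encodes gp130, was at -0.21, Il6ra at 0.11 and Lifr, the receptor chain for Lif, at -0.32. The gene with the largest ratio was Il11ra1, the IL-11 receptor, at -1.06. It missed the call because it was at -0.98 on 1 array (-1.14 on the other). Osmr, the oncostatin M receptor, was at 0.66. Il1rl1, the receptor for IL-33, was called lower, as above. Among 9 other measured receptors for the ligands described here, 1 was called. Lrp2 (megalin, an endocytic receptor that takes up lipocalin 2 among other ligands) was higher at 2.44, with 2.50 and 2.38 on the single arrays. Its 3 probes above background were far apart, from 0.25 to 2.44. Csf1r, the receptor for Csf1, was at -0.05.

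Of 15 STAT3 signalling and feedback genes, all above background, 0 were called higher and 1 lower (median 0.0046). The one called was Junb, an AP-1 subunit, at -1.51, or 2.86-fold lower. Stat3 itself was at 0.09. Socs3, the feedback inhibitor that STAT3 induces, was at -0.71.

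The inputs that are known to induce Il6 gave calls in both directions. Of 25 genes of the IL-1, TNF and Toll-like receptor list, 20 were above background, 1 was called higher and 2 lower (median 0.01). Irak2, a kinase that acts downstream of these receptors, was higher at 1.43 (1.57 and 1.29). Tlr2, the receptor for bacterial lipopeptides, was lower at -1.27, and Cd14, a co-receptor for lipopolysaccharide, was lower at -1.05. Il1a, Il1b, Il1rn and Tnf were not well above background. Of 17 NF-kB genes, 16 were above background, 1 was higher and 1 lower (median -0.11). Nfkbiz, which encodes the nuclear IkB protein that assists Il6 transcription, was higher at 1.26 (1.28 and 1.24). Bcl3, another nuclear IkB protein, was lower at -1.19. Rela was at 0.14 and Nfkb1 at 0.20.

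**Figure D4:**
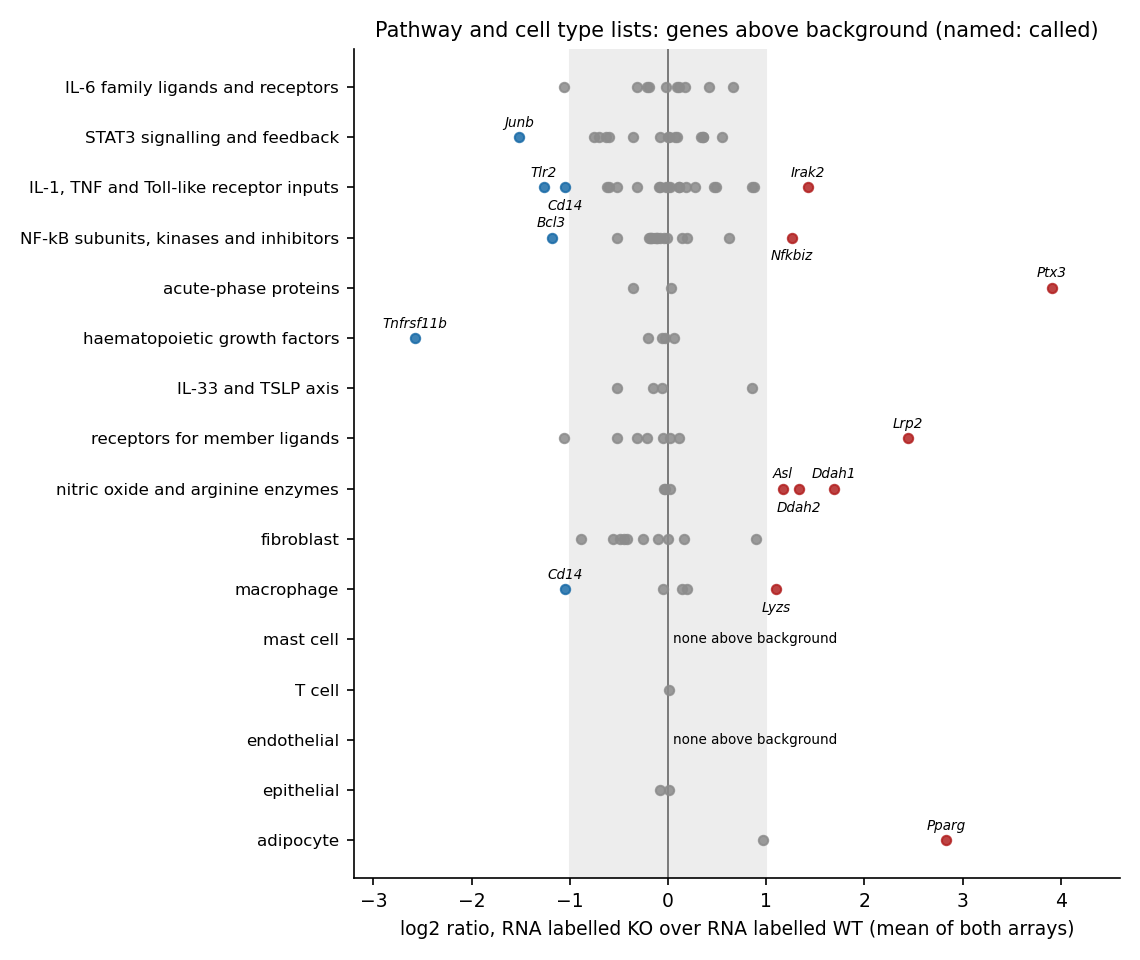
Mean log2 ratio of KO over WT (horizontal axis) of the genes above background in each of 9 pathway lists and 7 cell type marker lists, with called genes in red (higher) or blue (lower) and named. The receptor input and NF-kB rows hold called genes on both sides of 0, and Ptx3 at 3.91 and Tnfrsf11b at -2.57 lie farthest out.

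Of 20 measured acute-phase proteins, 3 were above background. The 1 called higher was Ptx3, the long pentraxin, which unlike the liver's acute-phase proteins is made by stromal and myeloid cells. Its log2 ratio was 3.91 (3.95 and 3.87 on the single arrays), or 15.1-fold, and its 3 probes ran from 0.97 to 4.10. Saa1 was at -0.36 and Itih4 at 0.03. Among 12 measured haematopoietic growth factors and related genes other than Csf1, 5 were above background. Tnfrsf11b (osteoprotegerin, the decoy receptor that restrains osteoclasts) was lower at -2.57, or 5.95-fold, and Csf2, Csf3 and Tnfsf11 were not well above background. Thpo was at -0.20. In the IL-33 and TSLP axis, with Il33, Tslp and Il1rl1 left aside, 4 of 9 genes were above background and 0 were called (median -0.11). Il4ra, a receptor chain for IL-4 and IL-13, was at 0.86, and Il1rap, the partner chain of Il1rl1, was at -0.52.

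Of 10 genes for nitric oxide and arginine metabolism, 6 were above background, 3 were called higher and 0 lower (median 0.60). Over all genes above background 2.95% were called higher and 2.61% lower (median -0.0037). The 3 called were Asl, an enzyme of arginine synthesis, at 1.17, and Ddah1 and Ddah2, which degrade the methylarginines that inhibit nitric oxide synthases, at 1.69 and 1.33. With median centring in place of loess, 0 of these 3 kept the call. Ass1, Gch1 and Odc1, also above background, were at -0.03, -0.04 and 0.02. The synthases Nos1 and Nos3, like Nos2, were not well above background.

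Markers of the cells in culture were read beside these values. All 10 fibroblast markers were above background in at least 1 RNA and 0 were called, with a summed signal in Cy5 of 214500 units in the RNA labelled KO and 238400 in the RNA labelled WT. Their median was -0.33. Vim, with 1 probe above background, was at -0.89 and ran from -0.94 to -2.40 under other scalings. It was well above background on both arrays in the RNA labelled WT alone, and stayed without a call under 2 of 5 other scalings. How well this probe reads Vim was not analysed here, so the size of its difference is uncertain. Col1a1 was at -0.56, Col3a1 at -0.49, Thy1 at -0.45, Pdgfra at -0.41 and Dcn at -0.25. Pdgfrb was at -0.10 and Col1a2 at 0.001, whereas Fn1 was at 0.89 and Lum at 0.16. Probes of 1 gene differed: the highest was at 0.13 for Thy1, -0.10 for Col3a1 and -0.06 for Pdgfra, and the lowest for Fn1 at 0.27. Of 11 macrophage markers, 5 were above background. Lyzs (lysozyme) was called higher, 2.15-fold, and Cd14 lower, as above. Cd68, Csf1r and Fcer1g were above background in both RNAs, at 0.14, -0.05 and 0.19. The other 6, Emr1, Itgam, Ptprc, Tyrobp, Aif1 and C1qa, were near background in both, and the summed signal in Cy5 was 2765 units against 1965. Of 5 adipocyte markers 2 were above background, and Pparg was called higher at 2.83, with a summed signal in Cy5 of 4021 units against 681. The other was Fabp4, a fatty acid binding protein, at 0.96. It was well above background on both arrays in the RNA labelled KO alone, missed the call at 0.92 on the array with KO in Cy5, and was called higher under each of 5 other scalings (1.03 to 4.05). Adipoq, Plin and Cidec were not above background. Each summed signal given here is of signals before normalization and takes in any markers near background. Of the mast cell and endothelial markers 0 were above background, of 5 T cell markers 1 was, and of 6 epithelial markers 2 were, with 0 called in these lists. The part of other cell types in the differences was not tested. In RNA from a whole culture, fewer cells of a type and less RNA per cell cannot be told apart.

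Over the 9 other ways of processing, Il6, Csf1 and Il1rl1 kept their direction. With each array centred on its median in place of the intensity-dependent loess fit, the means were 1.47 for Il6, 1.60 for Csf1 and -1.08 for Il1rl1, but the single arrays parted. Il1rl1 was then at -0.02 and -2.14 and, like Csf1, lost the call, so that Il6 was the only one of the 3 called. Of the 12 called pathway genes, the same 12 were called by Feature Extraction's ratio, by the deposited log2 table, at the offset of 10 and without background subtraction, and 4 of them with median centring (Ptx3, Lrp2, Tnfrsf11b and Bcl3). Junb, Irak2, Tlr2, Cd14, Nfkbiz, Asl, Ddah1 and Ddah2 lost the call with it, as did the marker Lyzs.

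**Figure D5:**
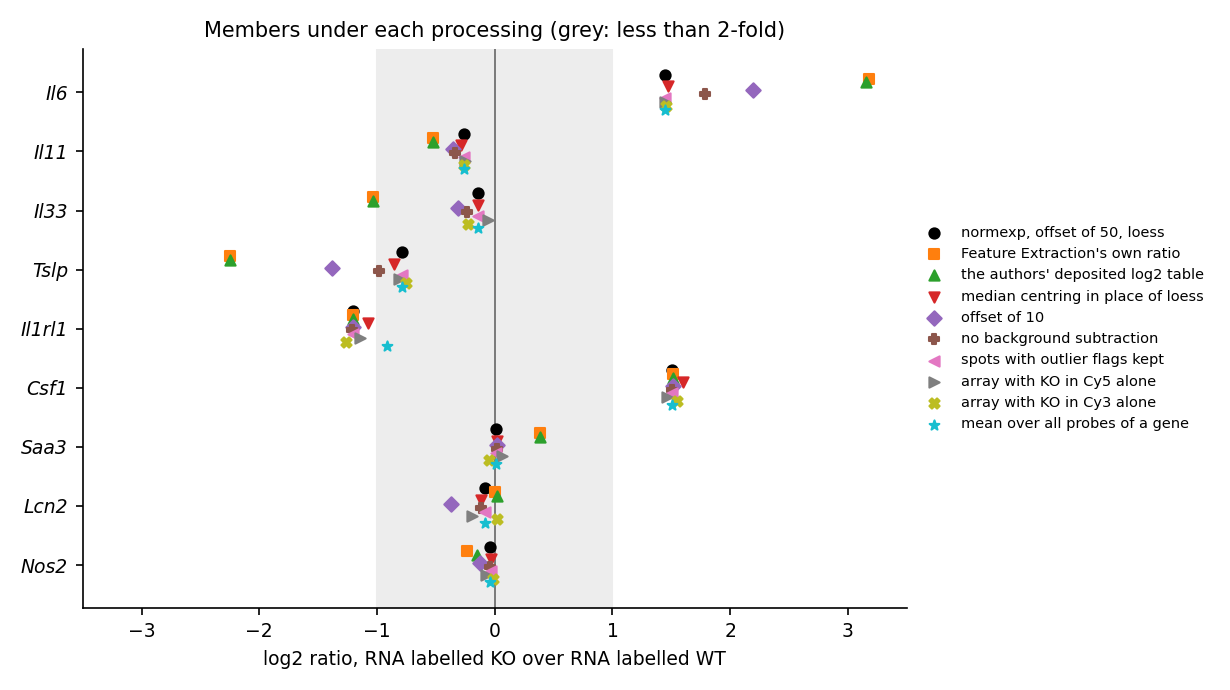
Mean log2 ratio of KO over WT (horizontal axis) of the 9 measured genes under 10 ways of processing, 1 symbol each. Csf1 stays between 1.47 and 1.60, Il6 runs from 1.45 to 3.18 and Tslp from -0.76 to -2.25, and Il1rl1 enters the grey band when its 3 probes are averaged.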

How the data were processed

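Total RNA of MEFs was labelled and hybridised in a dye swap to Agilent whole mouse genome oligonucleotide arrays, as 2 arrays with both genotypes on each. Per the file headers, Agilent Feature Extraction 10.5.1.1 read the scans, and the authors deposited mean signal and median local background of each spot as intensity in arbitrary units. The deposited files also hold Feature Extraction's log10 ratio of the red over the green channel, with its own background correction and dye normalization. A further table deposited by the authors holds log2 ratios, which matched log2 of KO over WT of the processed signals on both arrays (Pearson r of 1, column medians of -0.02 and 0.04). Coordinates are those of the files (NCBI36/mm8). The place of a probe in exons or UTRs was not analysed here, nor were probe sequences.

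Background was corrected by normexp (limma 3.58.1, offset 50; R 4.3.3), and intensities were normalized by loess within each array. The offset draws ratios of dim probes towards 0. Flagged spots (390 and 378) were left out, and 0 were saturated. Spots of a probe were averaged and, with the sign of the dye-swapped array reversed, so were both arrays. Well above background is Feature Extraction's flag, required in a share of 0.5 or more of the spots. The brightest probe stood for a gene. The 2-fold threshold is that of the methods. The number of arrays limits the precision. The calling steps were also run on simulated data, with changes set only at brighter probes and beyond 2-fold. That run does not cover dim genes such as Il6 and Tslp. Other software was numpy 2.4.6, pandas 2.3.3, scipy 1.17.1 and matplotlib 3.10.9 under Python 3.11.15.

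The genes and lists were chosen with earlier results of these data known. From each list the genes called were named (up to 6), and, where fewer than 2 were called, the 2 with the largest ratio. Some genes that meet this rule are left out of the text. Il6st, Il6ra, Lifr, Csf1r, Stat3, Rela, Nfkb1, Ass1, Gch1, Odc1, the fibroblast markers, Cd68, Fcer1g, Fabp4 and the genes listed as not above background were added after the values had been seen. The alternatives were Feature Extraction's ratio, the deposited log2 table, median centring, an offset of 10, no background subtraction, flagged spots kept, each array alone, the mean over probes, another call rule, no dim filter, and t and limma tests.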

Additional observations from a re-analysis of the deposited data

How the results depend on the processing

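The count of 2 genes called higher (Il6, Csf1) and 1 lower (Il1rl1) was the same without background subtraction and with flagged spots kept. It was also the same on each array alone, with the 2-fold threshold on the mean of both arrays and without the filter on dim probes. Those last settings could only add genes, since a gene called on both arrays passes each of them. With limma after Benjamini-Hochberg adjustment the count was again the same. Over the array limma left 517 genes higher and 489 lower, as many as the threshold on the mean alone. With Feature Extraction's own ratio, the deposited log2 table and the offset of 10, 2 genes were called lower, since Tslp was added; the genes called over the whole array then numbered 941 higher and 866 lower with the first of these. Median centring left 1 called higher (Il6) and 0 lower, with 252 genes higher and 139 lower over the array. The mean over all probes left 0 lower. The methods' t-test with 2-fold called 2 higher and 1 lower at an unadjusted p under 0.05 (408 and 358 genes), and 0 higher and 0 lower after Benjamini-Hochberg adjustment; with limma the counts were 2 and 1. These tests compare the RNAs hybridised, not the genotypes. The median of the 9 genes was -0.23 by Feature Extraction's own ratio and -0.31 at the offset of 10, both values below -0.09. Of 81 single values under the alternatives, 63 stayed within the SD between arrays, 18 moved (17 of them to a larger size) and 0 of the called genes reversed. Saa3 changed sign under 1 alternative and Lcn2 under 2. Each ratio pairs the RNAs labelled KO and WT within an array. Pairing over animals or cultures was not possible, because no separate replicates are named. The 2 arrays limit every value, and for Il6, Tslp and Il33 so does a signal close to background in at least 1 RNA.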
